A study of Arabidopsis thaliana with 6 samples.

Results

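The core genes of the Arabidopsis circadian clock were followed through an RNA-seq read count table as a set of 10. They were CCA1 (AT2G46830), LHY (AT1G01060), PRR9 (AT2G46790), PRR7 (AT5G02810), PRR5 (AT5G24470), TOC1 (AT5G61380), GI (AT1G22770), LUX (AT3G46640), ELF3 (AT2G25930) and ELF4 (AT2G40080). The set was taken by locus code, with earlier results of these data known. All 10 were found among the 27978 rows of the table, and all 10 passed the filter on low counts that left 21267 genes for testing. The table holds 6 libraries of wild-type (Col) seedlings of Arabidopsis thaliana in 3 groups of 2. The MT group was kept on plates with melatonin at 10 nM, the IAA group on plates with indole-3-acetic acid, the main natural auxin, at 1 nM, and the control group received 0.1% ethanol, the solvent of both compounds. All seedlings were raised on medium with 3% sucrose at 23 °C in 16 h of light and 8 h of darkness, were 4 days old when moved to the compounds, and are labelled 7 d. The hour of day at which they were harvested is not in the labels. Since the doses of the compounds differ, values of MT beside IAA are not dose matched.

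The plant clock is a set of transcription factors that repress one another in turn through the day. CCA1 and LHY are MYB-like repressors whose transcripts peak around dawn, and they hold down the evening genes. The pseudo-response regulators follow as a wave, PRR9 first, then PRR7, PRR5 and finally TOC1 (also called PRR1), and each represses CCA1 and LHY. GI, a large protein that stabilises the photoreceptor ZTL, peaks late in the day. LUX, a MYB-like DNA-binding protein, joins ELF3 and ELF4 near dusk in the evening complex, which represses PRR9, PRR7 and LUX itself. The ratio of dawn to dusk transcripts in a tissue therefore follows the time of day.

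Short stretches of promoter are shown for the motifs through which light and the dawn repressors are known to reach clock genes. They were read from the RefSeq TAIR10.1 genome by locus code, in the 300 bases before each annotated gene start, and both strands were searched. The G-box, with the letters CACGTG, is bound by light-signalling factors of the bHLH and bZIP families. It lay before CCA1, LHY, PRR9 and PRR7, the 4 members with the highest levels below, and in 7.09% of 27443 promoters of the same length. In these lines, given 5′ to 3′ on the strand of the gene, the capitals mark the G-box, whose first base lay 193 bases before the start of CCA1, 80 before LHY, 244 and 172 before PRR9, and 201 before PRR7.
CCA1: gtgtatcagaCACGTGtcgacaaact
LHY: acaatatcacCACGTGtcgatctgcg
PRR9 far: aatagaaaccCACGTGtcatccacat
PRR9 near: aggttaatgaCACGTGttaaggtgga
PRR7: cccaccattaCACGTGtcagttcaaa
Of the other 6 members, LUX, an evening gene, held a G-box in this window.

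The evening element, with the letters AAAATATCT, is the known binding site of CCA1 and LHY in evening genes. It lay before PRR5, TOC1 and LUX and before none of the other 7 members in this window, the evening genes GI and ELF4 among them, and in 2.79% of all promoters. The capitals below mark it. Before PRR5 and TOC1 it stands on the opposite strand and so reads AGATATTTT. Its first base lay 292 and 187 bases before the start of PRR5, 151 before TOC1 and 53 before LUX. The annotated model of PRR5 holds coding sequence alone, so its distances run from the start of the coding sequence.
PRR5 far: attctactAGATATTTTttcaaatcca
PRR5 near: gattttttctAGATATTTTcttttctcca
TOC1: aaatatcatgAGATATTTTctccaagatg
LUX: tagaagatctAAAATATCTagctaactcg
A near relative of the evening element, AAAAATCT, was found once, before PRR5, and in 7.94% of promoters. A LUX-binding site, GATTCG or GATACG, lay before PRR9, ELF3 and ELF4 and in 14.3% of promoters. None of these matches overlapped another. A match describes the letters and not binding, and the members were known when the motifs were chosen.

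Libraries held 40087221 to 65558371 counts, so that 3 counts, taken as the floor of counting error, equal 0.0458 to 0.0748 CPM by library totals alone. All other CPM are counts scaled to library size with TMM factors. MT replicate 1 stood apart, with 0.285% of its counts from plastid genes against 0.0196% to 0.0244% in the other 5 libraries. The columns of the control libraries carry 72 h in their names while their sample titles say 7 d, which touches every value against control. The labels name seedlings and the series' design text names rosette leaves. Green leaf and root markers were both read in every library, with none of 5 leaf, 5 endodermis, 3 root hair and 4 root meristem and stele markers at 0. The 5 endodermis markers summed to 26.3 and 15.5 CPM in MT, 10.4 and 12.3 CPM in IAA, and 6.44 and 9.17 CPM in control. The 3 root hair markers summed to 12 and 4.96 CPM in MT, 4.62 and 5.77 CPM in IAA, and 1.67 and 3.10 CPM in control. Both sums were thus higher in every treated library than in either control library, and their part in the clock values was not tested. The 4 meristem and stele markers summed to 53.8 and 53.9 in MT, 59.8 and 62.0 in IAA, and 55.8 and 52.5 CPM in control. By log2 fold change against control, 3 of these 4 were higher with MT and 4 with IAA, none of them called. Their medians were 0.61 with MT and 0.57 with IAA, beside -0.003 and 0.01 over all genes tested. The sums do not show this, since the most abundant markers weigh most in them. The 5 leaf markers summed to 33555.6 and 35202.3 in MT, 36456.5 and 36711 in IAA, and 34898.5 and 33522.5 CPM in control. These sums were highest in the IAA libraries, and their part in the clock values was not tested either. Of 2 seed storage genes, SESA1 was at 0 in all libraries and CRA1 was read at 0.416 to 1.57 CPM. Whether whole seedlings or rosette leaves were sampled, fewer cells of a type and less RNA per cell cannot be told apart.

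In all 6 libraries the dawn and morning genes stood far above the evening genes. On the scale of CPM per kb of the longest annotated transcript, which allows levels of different genes to be set side by side, CCA1 was highest at 96.3 to 108 (median 105). PRR7 followed at 47.6 to 57.8 (median 54.6), LHY at 43.9 to 52.3 (median 50.4) and PRR9 at 37.8 to 47.1 (median 41.9). After these 4 came a gap, for the lowest of them was 4.18 to 5.04 times the highest of the other 6 within each library. GI stood at 8.14 to 10.3 (median 9.35), ELF3 at 6.34 to 7.53 (median 6.73) and TOC1 at 6.01 to 8.00 (median 6.57). PRR5 at 0.834 to 2.19 (median 1.64), LUX at 0.815 to 1.19 (median 0.993) and ELF4 at 0.898 to 1.49 (median 0.984) were lowest, all in CPM per kb.

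**Figure D1:**
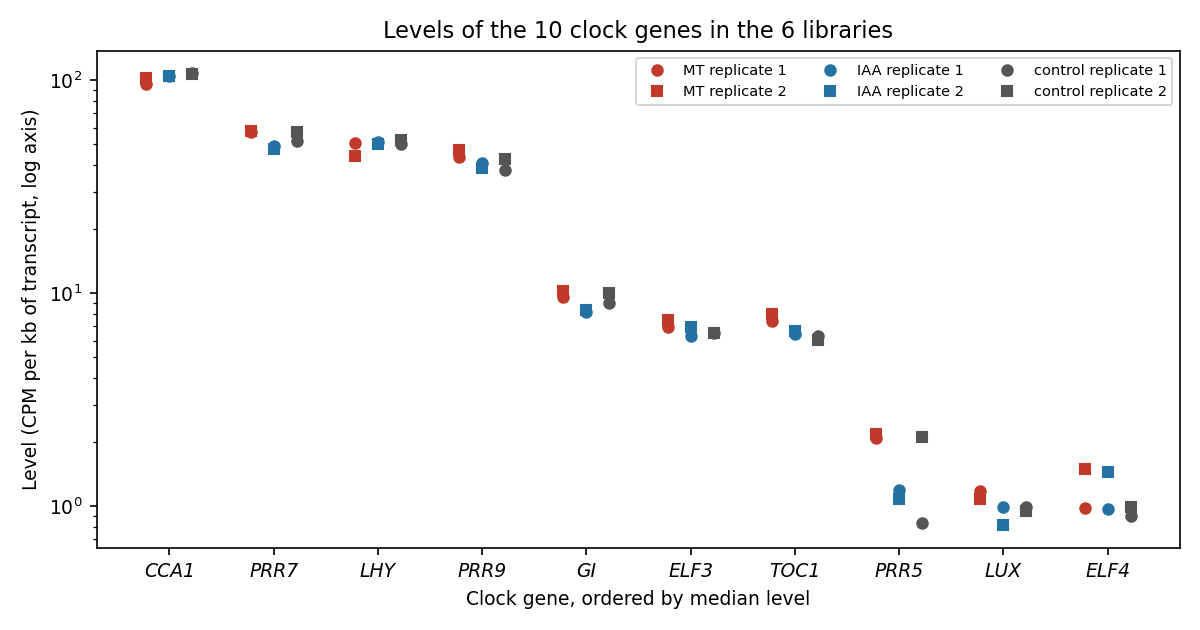
Level of each clock gene in each library, in CPM per kb of the longest annotated transcript (log axis), with genes ordered by median level and 1 point per library (MT, IAA and control, circles for replicate 1 and squares for replicate 2). CCA1, PRR7, LHY and PRR9 lie at 37.8 to 108 in all 6 libraries, and the other 6 genes lie at 0.815 to 10.3.

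Several neighbours in this order did not differ beyond the spread of the libraries. The ranges of PRR7 and LHY overlapped, as did those of LHY and PRR9, of ELF3 and TOC1, of PRR5 and LUX, and of LUX and ELF4. CCA1 and PRR7, PRR9 and GI, GI and ELF3, and TOC1 and PRR5 did not overlap. PRR9 and PRR7 were already high while PRR5, TOC1 and the evening complex genes were low. Such a split is the one described for the earlier part of the day, after dawn and before the afternoon. It was not set against a reference time course, and it compares different genes and not each gene over time. Early genes stood above late genes alike in the MT, IAA and control libraries. With a single harvest and no library from another hour, no clock hour can be read from these levels. The authors' annotation is not given in the sources used here, so the lengths come from TAIR10.1, and for PRR5 the length is the coding length. LUX has 3 annotated transcripts, the longest of 3242 bases, while its longest coding sequence has 975, so its level per kb depends on the model.

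CCA1 and LHY, the dawn repressors, gave no difference between groups that passed the test. CCA1 had 253 and 269 CPM in MT, 277 and 276 CPM in IAA, and 284 and 283 CPM in control. Both MT libraries lay below all others and both IAA libraries lay just below control, yet the whole span over 6 libraries was 0.16 on the log2 scale, and 10.3% of the genes tested had a smaller one. LHY had 149 and 129 CPM in MT, 150.3 and 147 CPM in IAA, and 147 and 153 CPM in control. The MT and control libraries overlapped for LHY, and MT replicate 2 alone was low. The log2 fold change of CCA1 was -0.12 ± 0.06 (SE) for MT against control, with a 95% interval of -0.25 to 0.02, and -0.04 ± 0.06 for IAA against control, with an interval of -0.17 to 0.10. For LHY the intervals ran from -0.29 to 0.06 with MT and from -0.19 to 0.16 with IAA.

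PRR9 and PRR7, the morning pseudo-response regulators, gave none either. PRR9 had 89.7 and 96.4 CPM in MT, 83.9 and 79.4 CPM in IAA, and 77.3 and 87.6 CPM in control. The MT libraries were the highest, control replicate 2 was close to them, and IAA lay within the control range. PRR7 had 184 and 187 CPM in MT, 159 and 154 CPM in IAA, and 169 and 185 CPM in control. Here the IAA libraries were the lowest of the 6, while MT overlapped control. The log2 fold change of PRR7 with IAA was -0.18 ± 0.07 (SE), with an interval of -0.33 to -0.03 and an adjusted p of 0.368 in the quasi-likelihood test of edgeR (Benjamini-Hochberg) over all 21267 genes.

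PRR5, which follows PRR7 in the wave, varied most among the members. It had 173 and 147 counts in MT (3.50 and 3.67 CPM), 130 and 81 counts in IAA (2.00 and 1.81 CPM), and 73 and 168 counts in control (1.40 and 3.54 CPM). Control replicate 2 lay with the MT libraries and control replicate 1 below the IAA libraries. The 2 control libraries differed by 1.31 on the log2 scale, more than in 97.6% of the genes tested, for which the median difference between them was 0.12. The log2 fold change was 0.54 for MT against control, with an interval of -0.34 to 1.42, and moved to 1.34 when control replicate 2 was left out and to 0.01 when control replicate 1 was. For IAA against control it was -0.36, and 0.43 without control replicate 2 against -0.90 without control replicate 1, so its direction hung on a single control library.

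TOC1, the last of the pseudo-response regulators, was the member with the lowest p against control. It had 20.9 and 22.5 CPM in MT, 18.2 and 18.7 CPM in IAA, and 17.8 and 16.9 CPM in control. The groups did not overlap, with MT highest and control lowest. TOC1 was 1.25-fold the control level in MT (log2 fold change 0.32 ± 0.09 SE, 95% interval 0.11 to 0.54), with an unadjusted p of 0.00781 and an adjusted p of 0.171 in the quasi-likelihood test of edgeR (Benjamini-Hochberg), which did not pass. With IAA the log2 fold change was 0.09 ± 0.09 (SE), with an interval of -0.12 to 0.30.

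GI, the partner of ZTL, followed PRR7 closely from library to library. It had 41.5 and 44.2 CPM in MT, 35 and 36.0 CPM in IAA, and 38.9 and 43.1 CPM in control. The IAA libraries were the lowest of the 6 and MT overlapped control, as for PRR7. After each gene's log2 CPM was centred on its mean over the 6 libraries, the root mean square difference between GI and PRR7 was 0.03, the smallest among the 45 pairs of members. With IAA the log2 fold change of GI was -0.21 ± 0.08 (SE), with an interval of -0.39 to -0.02 and an adjusted p of 0.389 in the quasi-likelihood test of edgeR (Benjamini-Hochberg).

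LUX and ELF4, of the evening complex, had the lowest levels per kb of the members along with PRR5. LUX had 190 and 141 counts in MT (3.84 and 3.52 CPM), 209 and 118 counts in IAA (3.22 and 2.64 CPM), and 168 and 146 counts in control (3.22 and 3.08 CPM). MT was above control in both libraries, with a 95% interval of the log2 fold change of -0.26 to 0.71. LUX overlaps a protein-coding gene on the opposite strand, AT3G46650, over 1507 bases, and since the use of strand in counting is not given, reads of the 2 genes cannot be told apart. ELF4 had 30 and 37 counts in MT (0.607 and 0.923 CPM), 39 and 40 counts in IAA (0.601 and 0.895 CPM), and 29 and 29 counts in control (0.556 and 0.611 CPM). Such counts leave an interval of -0.67 to 1.44 on the log2 scale for MT against control, so that a difference of 2-fold could not be told from none at this depth.

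ELF3, the scaffold of the evening complex, had 19.1 and 20.7 CPM in MT, 17.4 and 19.0 CPM in IAA, and 18.0 and 17.8 CPM in control. MT lay above control in both libraries and IAA lay on either side of it. The log2 fold change was 0.15 with MT (interval -0.07 to 0.37) and 0.02 with IAA (interval -0.20 to 0.24). ELF3 overlaps an annotated antisense RNA and the end of a neighbouring gene, both on the opposite strand, so its reads cannot be told from theirs either.

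None of the 10 members was called in MT against control, in IAA against control, in MT against IAA or in the test for any difference among the 3 groups, by edgeR's quasi-likelihood test at an adjusted p of 0.05. The share of all genes called was 1.89% for MT against control, 0.701% for IAA against control, 0.0188% for MT against IAA and 1.33% for any difference. At an unadjusted p under 0.05 there was 1 member with MT (TOC1, higher), where 13.2% of all genes passed and 8.67% did so upwards. There were 2 with IAA (PRR7 and GI, lower), where 11% passed and 4.27% did so downwards. There were 5 between MT and IAA, where 10.5% passed, and 3 in the test for any difference (PRR7, TOC1 and GI), where 13.6% passed. DESeq2 called 0 members with MT, 0 with IAA and 1 between MT and IAA, where it called 3.87%, 2.23% and 1.2% of all genes. Limma-voom called 0 in all 3 comparisons, where it called 1.63%, 0.583% and 0.0188% of all genes. For CCA1, LHY, PRR9, PRR7, TOC1, GI and ELF3, every interval against control lay between 0.763 and 1.45 times the control level.

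**Figure D2:**
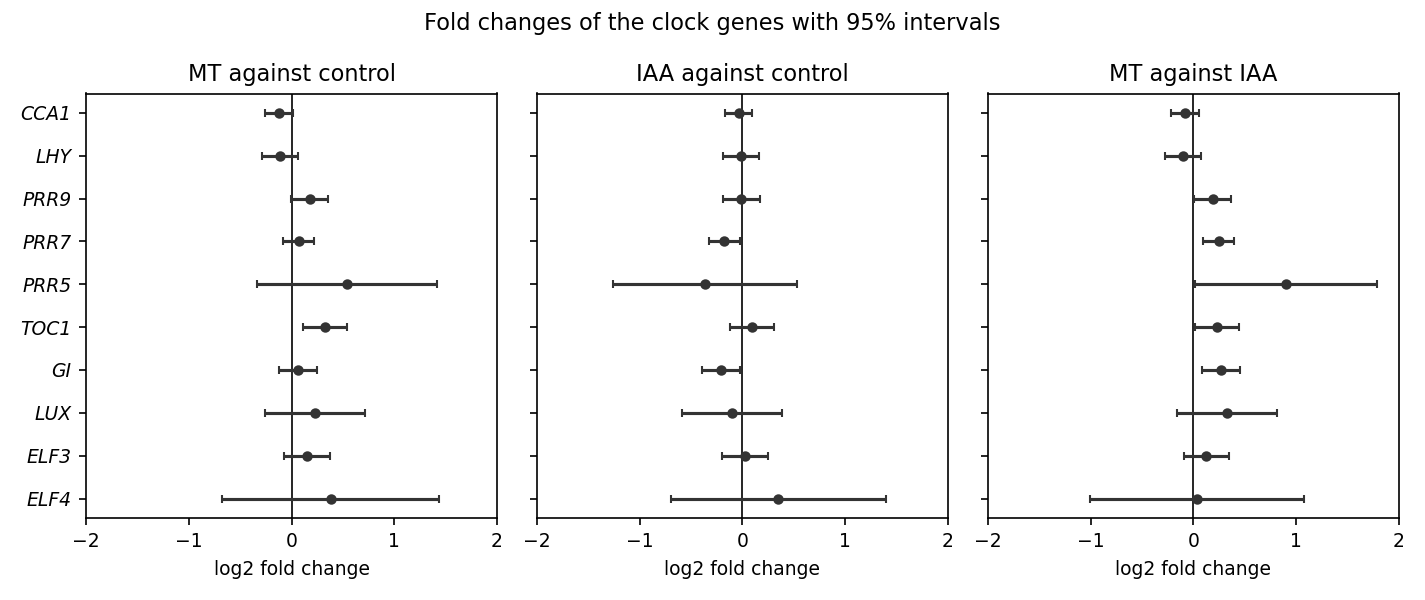
Log2 fold change of each clock gene (point) with its 95% interval (bar) from edgeR's fit over all 6 libraries, for MT against control, IAA against control and MT against IAA. No gene passed an adjusted p of 0.05, and the bars are widest for PRR5 and ELF4, at -0.34 to 1.42 and -0.67 to 1.44 for MT against control.

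The signs of the fold changes are given here as a description, since none passed the test. Against control, 2 of 10 members had negative log2 fold changes with MT and 7 of 10 with IAA, beside 50.7% and 46.4% of all genes. CCA1 and LHY were negative and TOC1, ELF3 and ELF4 positive with both compounds. The values of LHY and PRR9 with IAA, -0.02 and -0.01, turned sign under some settings. So did those of PRR5, LUX and ELF3 with IAA and of PRR7 and GI with MT. The median over the members was 0.16 with MT and -0.03 with IAA, beside -0.003 and 0.01 over all genes tested. Both comparisons use the same control libraries. With MT, TOC1, PRR9, LUX and ELF3 lay above control in both libraries and CCA1 lay below, whereas 22.5% and 22.2% of all genes did so upwards and downwards. With IAA, TOC1 lay above control and CCA1, PRR7 and GI lay below, against 23.6% and 20.2% of all genes.

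MT against IAA leaves the control libraries and their 72 h column names out of the levels compared. Its SEs and p-values still use the spread of all 6 libraries, control among them. Of the 3 comparisons it had the most members without overlap. PRR9, PRR7, PRR5, TOC1, GI, LUX and ELF3, 7 of the 10, were higher in both MT libraries than in both IAA libraries, and CCA1 was lower, against 19.8% and 20.4% of all genes. Negative differences were found for 2 of 10 members and 51.6% of all genes. The median log2 difference over the members was 0.21, beside -0.007 over all genes. The 5 members at an unadjusted p under 0.05 were PRR7, GI, TOC1, PRR9 and PRR5, all higher with MT, where 5.98% of all genes were higher at that threshold. The log2 differences were 0.25 ± 0.07 for PRR7, 0.27 ± 0.08 for GI, 0.23 ± 0.09 for TOC1, 0.19 ± 0.08 for PRR9 and 0.90 ± 0.39 for PRR5 (SE). Their adjusted p ran from 0.302 to 0.467 in the quasi-likelihood test of edgeR (Benjamini-Hochberg). Of the members DESeq2 called PRR7 alone, at an adjusted p of 0.0453, where it called 1.2% of all genes.

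A balance of dawn against evening transcripts was formed for each library as the mean log2 CPM of CCA1 and LHY minus that of TOC1, GI, LUX and ELF4. It was 4.83 and 4.61 in MT, 5.08 and 4.97 in IAA, and 5.08 and 5.07 in control. The MT libraries had the lowest balance and did not overlap the others, while IAA replicate 1 lay level with control. The means were 4.72 ± 0.16 in MT, 5.02 ± 0.07 in IAA and 5.07 ± 0.004 in control (SD, n = 2 each). The difference was -0.36 for MT against control, -0.05 for IAA against control and -0.31 for MT against IAA. The value of IAA against control turned to 0.0478 without ELF4 and to 0.004 without IAA replicate 2, and that of MT against IAA was -0.20 without MT replicate 2. Both terms stood apart in MT, for the dawn mean was 7.60 and 7.54 there against 7.67 and 7.70 in control, and the evening mean was 2.77 and 2.93 in MT against 2.6 and 2.63 in control. No p is given, since the score rests on chosen members.

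**Figure D3:**
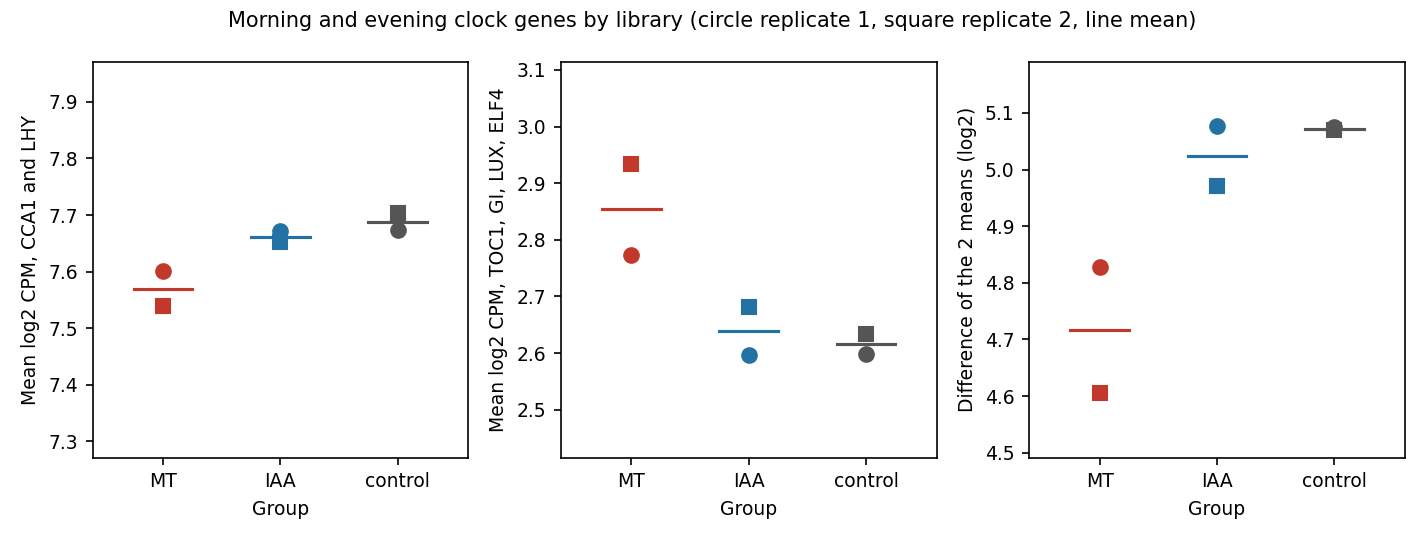
Mean log2 CPM of the dawn genes CCA1 and LHY (left), of the evening genes TOC1, GI, LUX and ELF4 (middle), and their difference (right) in each library, with circles for replicate 1, squares for replicate 2 and a line at the group mean; the 3 axes span the same range. The difference is 4.61 and 4.83 in the MT libraries and 4.97 to 5.08 in the IAA and control libraries.

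In counts of reads, CCA1 was 12.1 and 12 times TOC1 in the MT libraries, 15.2 and 14.7 times in IAA, and 16.0 and 16.8 times in control. These ratios are within a library and so do not depend on scaling. All 6 remain on the same side, with CCA1 far above TOC1, and the MT libraries are the lowest for this ratio. LHY was 3.58 and 2.91 times GI in MT, 4.29 and 4.07 times in IAA, and 3.78 and 3.56 times in control. MT replicate 1 thus lay within the control range, and the IAA libraries were the highest. GI was 0.164 and 0.165 times CCA1 in MT, 0.127 and 0.131 times in IAA, and 0.137 and 0.152 times in control. Here the MT libraries were the highest and the IAA libraries the lowest.

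Beyond the core, 65 further genes of the clock and its outputs were taken in 10 lists, and edgeR's test called 1 of the 65 with MT against control, 0 with IAA against control and 0 between MT and IAA, where it called 1.89%, 0.701% and 0.0188% of all genes. DESeq2 called 3, 2 and 1 of the 65 in these comparisons, where it called 3.87%, 2.23% and 1.2% of all genes, and limma-voom called 0, 0 and 0. The gene called by edgeR was CDF1, a repressor of the flowering gene CO that is degraded through GI and FKF1. CDF1 had 51.2 and 60.3 CPM in MT, 45.5 and 48.6 CPM in IAA, and 39.9 and 41.7 CPM in control, so that the groups did not overlap. It rose with MT by a log2 fold change of 0.45 ± 0.09 (SE), with an adjusted p of 0.0471 in the quasi-likelihood test of edgeR (Benjamini-Hochberg). The call ended without control replicate 1 (adjusted p = 0.423), control replicate 2 (0.165), IAA replicate 1 (0.0769), IAA replicate 2 (0.0745) or MT replicate 2 (0.122), with limma-voom (0.0569) and with only the 2 groups in the fit (0.0737). Over all settings its log2 fold change ran from 0.32 to 0.57. The other 5 photoperiodic flowering outputs were not called.

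Among the MYB-like relatives of CCA1 and their LNK coactivators, edgeR's test called 0 of 12 in any comparison. At an unadjusted p under 0.05 there were 3 for MT against control, 3 for IAA against control and 2 for MT against IAA. The shares of all genes at that threshold were 13.2%, 11% and 10.5%. RVE1, a dawn-peaking relative that promotes auxin synthesis, had 46.3 and 45.9 CPM in MT, 48.7 and 53.0 CPM in IAA, and 58.7 and 56.8 CPM in control. It was lowest in both MT libraries, with a log2 fold change of -0.32 ± 0.07 (SE) for MT against control. Its adjusted p was 0.0656 in edgeR's quasi-likelihood test, 0.011 with DESeq2 and 0.04 with no filter on low counts. It did not pass with limma-voom (0.0736), a replicate block (0.0866) or only the 2 groups in the fit (0.0727). RVE2 went the other way with MT against control, at 0.50 ± 0.15 (SE), with an adjusted p of 0.174 in edgeR's quasi-likelihood test. RVE7 had the lowest p of this list with IAA, at a log2 fold change of -0.30 ± 0.09 (SE), and RVE2 that between MT and IAA, at 0.40 ± 0.15 (SE).

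The relatives of the PRR and evening complex genes ranged widely in level. ELF4-L2, an ELF4-like gene, had 14.3 and 12.9 CPM in MT, 12.2 and 10.4 CPM in IAA, and 14.3 and 14.8 CPM in control. PRR3, the remaining pseudo-response regulator, had 25 and 25 counts in MT, 36 and 21 in IAA, and 14 and 32 in control, and BOA, a relative of LUX, had 17 and 4, 15 and 22, and 0 and 12 counts in the same groups. FKF1, a blue light receptor of the ZTL family with a late-day peak, had 20 and 44 counts in MT, 5 and 16 in IAA, and 5 and 17 in control. The MT libraries were highest for FKF1, but replicate 2 was the higher library in each group and its p was 0.0877 before adjustment for MT against control. ELF4-L2 had the lowest p of the 6 relatives with IAA, at -0.36 ± 0.12 (SE), which did not pass. Of the 10 photoreceptors and ZTL family genes 0 were called, and CRY1, a cryptochrome, had log2 fold changes of -0.17 ± 0.06 with either compound.

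Of 11 other clock regulators 0 were called, with medians of -0.05 for either compound against control. FIO1, an RNA methyltransferase that affects the period of the clock, had the lowest p against control, at -0.45 ± 0.15 with MT and -0.27 ± 0.14 with IAA (SE), and LIP1, a small GTPase of light input, that between MT and IAA, at -0.13 ± 0.07. LKP2, of the ZTL family, was at -0.30 ± 0.09 between MT and IAA and ELF4-L4 at 0.40 ± 0.30 with MT, neither of them called. Among 4 growth outputs HB2, a homeodomain factor of shade growth, was at 0.20 ± 0.11 with MT and 0.14 ± 0.11 with IAA, and PIL1, a shade-induced bHLH factor, at 0.59 ± 0.42 between MT and IAA (SE).

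Among the clock outputs other than CDF1 and the light-induced and dark-induced genes, edgeR's test gave no call, while DESeq2 called CHS with MT, NIA2 and DIN10 with IAA, and DIN10 between MT and IAA. The 5 morning outputs had a median log2 fold change of -0.08 with MT and -0.001 with IAA, and the 3 evening outputs one of 0.03 and -0.05. CAT2, a catalase, had the lowest p of the morning outputs against control, at -0.13 ± 0.06 with MT and -0.16 ± 0.06 with IAA (SE), and COL2 that between MT and IAA, at -0.14 ± 0.08. CAT3, an evening-phased catalase, was at -0.15 ± 0.07 with MT and GRP8 at 0.09 ± 0.07 between MT and IAA (SE). GRP7, an RNA-binding protein of the evening output loop, had 31.7 and 30.8 CPM in MT, 27.6 and 41.3 CPM in IAA, and 26.4 and 26.0 CPM in control. CHS, the light-induced first enzyme of flavonoid synthesis, had 370 and 369 CPM in MT, 324 and 305 CPM in IAA, and 248 and 309 CPM in control. For MT against control its adjusted p was 0.0912 in edgeR's quasi-likelihood test, 0.00265 with DESeq2 and 0.0386 with no filter on low counts. It did not pass with limma-voom (0.0772), a replicate block (0.105) or only the 2 groups in the fit (0.134). The log2 fold change of CHS, 0.41, moved to 0.25 without control replicate 1 and to 0.56 without control replicate 2. NIA2, a nitrate reductase, was at -0.31 ± 0.07 (SE) with IAA, with an adjusted p of 0.103 in edgeR's quasi-likelihood test, 0.00136 with DESeq2 and 0.0400 with no filter on low counts. NIA2 did not pass with limma-voom (0.0845) or a replicate block (0.146). Of the 3 dark- and starvation-induced genes ASN1, an asparagine synthetase, was at -0.23 ± 0.08 (SE) with MT. DIN10, a dark-induced gene of sugar starvation, had 99.1 and 79.6 CPM in MT, 71.6 and 64.7 CPM in IAA, and 92.8 and 92.2 CPM in control. It was lowest in the IAA libraries, at a log2 fold change of -0.44 ± 0.10 (SE) and an adjusted p of 0.131 in edgeR's quasi-likelihood test and 0.00798 with DESeq2. Between MT and IAA its log2 difference was 0.39 ± 0.10 (SE), with an adjusted p of 0.293 in edgeR's quasi-likelihood test and 0.0448 with DESeq2.

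**Figure D4:**
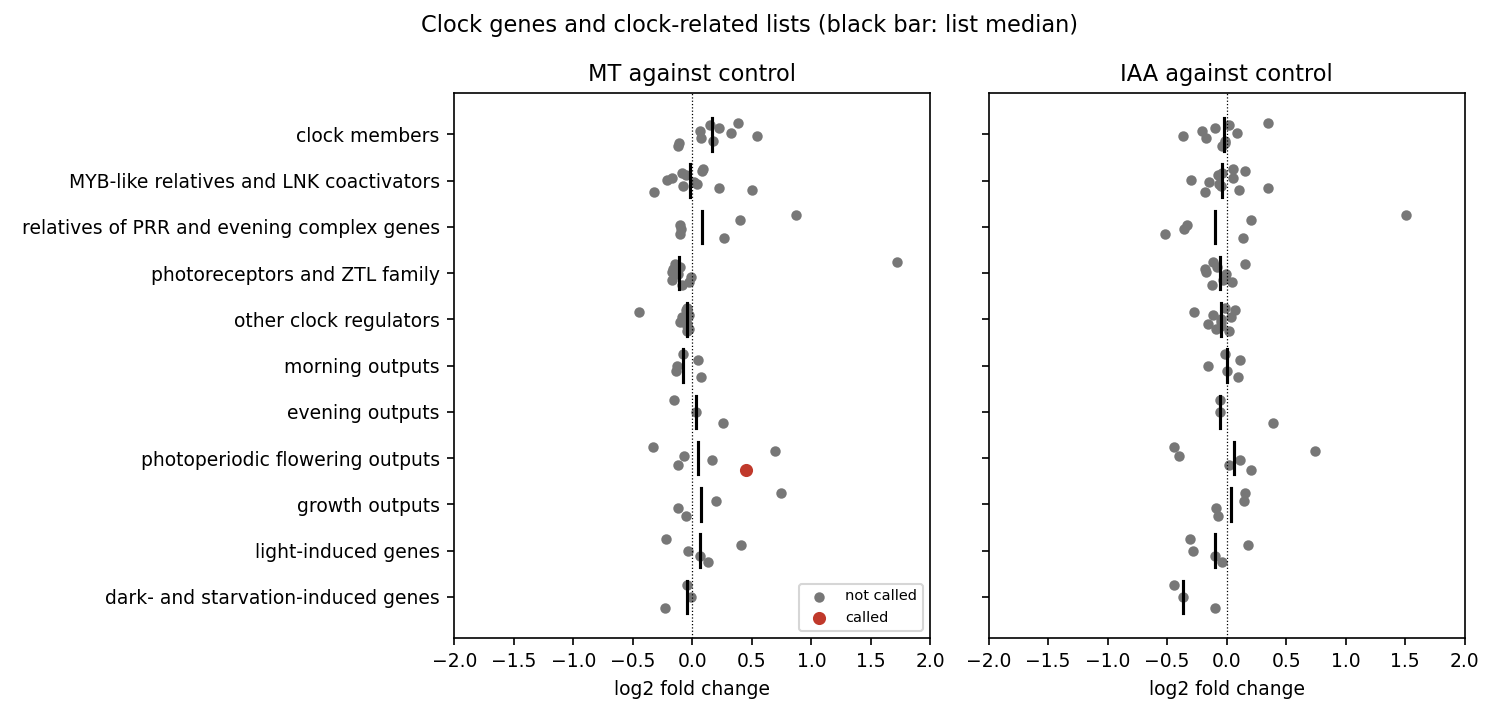
Log2 fold change of every tested gene of the 10 clock members and of 10 clock-related lists (points), for MT against control (left) and IAA against control (right), with a black bar at each list's median. CDF1, at 0.45 with MT, is the single gene called by edgeR's test at an adjusted p of 0.05, and the list median farthest from 0 is that of the dark- and starvation-induced genes with IAA, at -0.36.

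The genes whose pattern over the 6 libraries was most like that of a member were sought among 15000 genes outside the set with a mean of at least 5 CPM. For CCA1 the nearest were HSD2, RPT6A, RIK, a locus without annotation and BETA-OHASE 1, with root mean square differences of centred log2 CPM of 0.01 to 0.02. For GI they were PAP10, NRT1.7, AT1G20030, UBC13 and NIR1, at 0.04. CCA1 itself varied by 0.06 and GI by 0.13 around their own means on this measure. Of the 15000 genes, 12783 lay within 0.2 of CCA1 and 10897 within 0.2 of GI. That cut is wider than the variation of CCA1 or GI itself, so it also takes in genes that hardly vary. These counts therefore cannot say how common likeness at 0.01 to 0.04 is.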

How the data were processed

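Read counts per gene were measured by RNA-seq in 6 libraries. The authors deposited 1 table of whole-number counts, with no normalization. HTSeq 0.6.1, DESeq, TopHat2 2.0.12 and Bowtie2 2.2.3 are named, without their roles, per the submitters' processing notes. The sources used here give no genome build, annotation, library kit or strand setting. Groups came from the sample titles. No replicates were identical, and since the labels do not say that they came from separate cultures, p-values reflect the spread among these libraries alone, possibly technical.

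Low genes were removed by filterByExpr, leaving 21267 of 27978, and scaled by TMM factors. All 6 libraries entered 1 fit of edgeR 4.0.16 (R 4.3.3; glmQLFit, glmQLFTest), with a common biological coefficient of variation of 0.123, 3 residual and 5.61 prior degrees of freedom, and Benjamini-Hochberg adjustment over all genes at 0.05. Intervals of fold changes are at 95%. Log2 CPM used a prior count of 2. DESeq2 1.42.0 and limma-voom (limma 3.58.1) were alternatives, with other scalings, filters, a replicate block and leaving out each library. TAIR10.1 (RefSeq) gave names, lengths, overlaps and promoter sequence by locus code.

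Members and lists were chosen with earlier results of these data known. The text names all members, from each list the genes past the threshold (at most 4 a comparison, by p) or else the gene with the lowest p, and the 5 genes most like CCA1 and GI. PRR3, BOA and FKF1 were named after their values were seen. Floors cover counting error only.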

Additional observations from a re-analysis of the deposited data

How the results depend on the processing

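The count of clock members called was 0 against control with either compound, and 0 in the test for any difference, under every alternative run, and between MT and IAA it was 0 except with DESeq2 (1 member, PRR7). The number of all genes called moved more. For IAA against control (149) it was 268 with no filter on low counts, 475 with DESeq2, 81 with only the 2 groups fitted, and 17 to 109 when a library was left out. For MT against control (403) it was 823 with DESeq2 and 112 to 447 when a library was left out. For MT against IAA (4) it was 13 with no filter, 255 with DESeq2 and 0 to 55 when a library was left out, with 55 without MT replicate 2. Without control replicate 1 the counts against control were 17 for IAA and 112 for MT, without MT replicate 1 the MT count was 172, and without IAA replicate 1 or 2 the IAA count was 48 or 21. Fewer samples also leave less to measure the spread. The dawn and evening balance of MT against control ran from -0.47 to -0.24 and that of MT against IAA from -0.42 to -0.20 when a library was left out. That of IAA against control ran from -0.10 to 0.004, and was 0.0478 without ELF4, an alternative chosen after seeing the data, as were the settings run for the 65 other clock genes and for the test of any difference. With the replicate number as a block, 137, 351 and 5 genes were called for IAA against control, MT against control and MT against IAA, and 0 members in each. Deviations of same-numbered libraries from their group means correlated at 0.03 for control and IAA, -0.15 for control and MT and 0.01 for IAA and MT over genes, and the labels give the numbers no shared day or batch, so they were not taken as pairs. RLE factors and library totals moved the median of all genes to at most 0.02 on the log2 scale. Depth limits ELF4, PRR3, BOA and FKF1, with 44 counts or fewer per library.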
